A study of Mus musculus with 17 samples.

Results

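The genes described here encode the constitutive proteasome of mouse CD8 T cells sorted from lung tumours. They are the gene symbols of the Psma, Psmb, Psmc and Psmd series, without the inducible catalytic subunits Psmb8, Psmb9 and Psmb10, without symbols marked as pseudogenes by -ps, and with a mean of at least 1 CPM (reads of a gene scaled to the library's total). Of 42 matching symbols among the 27240 genes of the count table, 5 carried -ps and 2 had a lower mean, which left 35 genes. The 2 below the threshold were Psma8, a testis form of an alpha subunit, with a mean of 0.620 CPM, and Psmb11, the subunit of the thymus form, with 0.0571 CPM. The lowest gene inside the threshold was Psmc3ip with 7.95 CPM. All 35 passed the filter on low counts, and their lowest value in any library was 2.58 CPM, of Psmc3ip in WT rim.

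The rule takes symbols, not functions. Psmc3ip encodes a partner of meiotic recombination proteins and is no proteasome subunit. Psmd5, Psmd9 and Psmd10 encode chaperones that help to build the regulatory particle and then leave it. The other 31 genes encode subunits of the finished particle.

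The proteasome is the cell's main machine for degrading proteins tagged with ubiquitin. Its core particle is a stack of rings: the outer rings are built of alpha subunits, which gate the entry, and the inner rings of beta subunits, of which Psmb5, Psmb6 and Psmb7 carry the proteolytic sites. A regulatory particle caps the core. Its base holds the Psmc ATPases, which unfold substrates, together with scaffold and ubiquitin-binding subunits, and its lid holds Psmd14, the enzyme that removes the ubiquitin chain. In lymphocytes and after interferon, Psmb8, Psmb9 and Psmb10 replace the constitutive catalytic subunits and form the immunoproteasome, which favours peptides for MHC class I. T cells that are activated and dividing are known to raise protein synthesis and turnover.

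The study sequenced bulk RNA of sorted CD8 T cells in 17 libraries. KO mice lack PD-L1 in the endothelium, while WT mice keep this ligand, which restrains T cells through PD-1. The labels do not name the promoter that drives the deletion, the tumour model or the age of the mice. The groups were KO core with 6 libraries, WT core with 5, KO rim with 4 and WT rim with 2, where core stands for tissue enriched for the tumour core, taken from macroscopic nodules, and rim for tissue enriched for the rim, taken from nodules in the parenchyma. No label ties a library to its own animal, so that p-values measure only the spread between these libraries, which may be technical. The identifiers F322, F86 and O occur in both KO core and KO rim, and 1 WT core library is labelled as a pool, whose makeup is not given.

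Totals ran from 23250676 to 32566456 counts in KO core, from 24207723 to 28517265 in WT core, from 21767045 to 24690274 in KO rim and from 21986257 to 23105415 in WT rim. All 10 genes of a fixed T cell and CD8 list had reads in every library, and their summed level ran from 5001 to 9763 CPM over the 17 libraries. Reads from Xist and Y-linked genes marked the F322 and O libraries as male, the WT core pool as mixed and the others as female. For the genes described here, WT rim H874 had the lowest level of 15 of the 35, and WT core H873 had the highest level of 17. Results that rest on either are given with and without it.

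Per length of transcript, the 31 subunit genes were measured within a range of 11.98 times. Levels in this paragraph are mean CPM per kilobase of the principal transcript over the 17 libraries. The lowest subunit was Psmd11, a lid subunit, with 30.04, the highest was Psma7, an alpha subunit at the entry gate, with 359.9, and the median was 125.9. Of the chaperones, Psmd9 with 14.3 and Psmd5 with 24.2 lay below every subunit gene, and Psmd10 was at 39.2. Of the constitutive catalytic subunits, Psmb6 was at 216.0, Psmb7 at 64.9 and Psmb5 at 54.9. Their inducible counterparts were at 170.5 for Psmb9, 107.8 for Psmb10 and 429.3 for Psmb8, so that the inducible chymotrypsin-like subunit Psmb8 lay above Psmb5 per length in each of the 4 groups, with 441.5 against 56.9 in KO core, 477.2 against 62.7 in WT core, 399.2 against 49.0 in KO rim and 332.9 against 41.7 in WT rim.

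The 35 genes varied little between libraries of 1 group. The median of their within-group SD was 0.152 on the log2 scale, against 0.708 over all 20137 genes tested and 0.272 over the 6120 tested genes averaging 30 CPM or more. The smallest SD was that of Psma7, 0.0910, and the largest were those of Psmc3ip, 0.426, and of Psmd3, a lid subunit, 0.295. The genes lie on 15 chromosomes, so that they are not 1 cluster. Some exons are shared with other genes in the GENCODE annotation of GRCm38, and whether counting used the strand is not given. Of the exonic length of Psmb7, 11.8% overlaps Nek6 on the opposite strand. The share is 25.5% for Psmd9 with the long noncoding RNA Gm26745, 21.2% for Psmc3ip with Mlx, 10.1% for Psmd13 with Sirt3 and 12.1% for Psmb5 with the miRNA gene Mir686 on its own strand. Psma5-ps, a pseudogene of Psma5, was counted at a mean of 9.48 CPM, so that reads of the parent may be split. The same holds for Psmb6, with Psmb6-ps2 at 2.92 CPM and Psmb6-ps at 0.51 CPM. Psmb5-ps and Psmb7-ps1 were at 0.091 and 0.090 CPM.

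Most subunit genes had their highest level in a core library and their lowest level in a rim library. The highest of the 17 libraries was a KO core library for 6 of the 35 genes, a WT core library for 28 and a KO rim library for 1. The lowest was a KO core library for 2, a WT core library for 1, a KO rim library for 14 and a WT rim library for 18. The mean log2 CPM over the 35 genes was 7.18 ± 0.0819 in KO core (SD, n = 6), 7.29 ± 0.0899 in WT core (n = 5), 7.01 ± 0.111 in KO rim (n = 4) and 6.86 ± 0.101 in WT rim (n = 2). By library it ran from 6.79 in WT rim H874 and 6.85 in KO rim F322 to 7.31 in KO core F86 and 7.41 in WT core H873. In bulk RNA, a different share of cells with much of a transcript and a different amount of it per cell cannot be told apart.

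**Figure D1:**
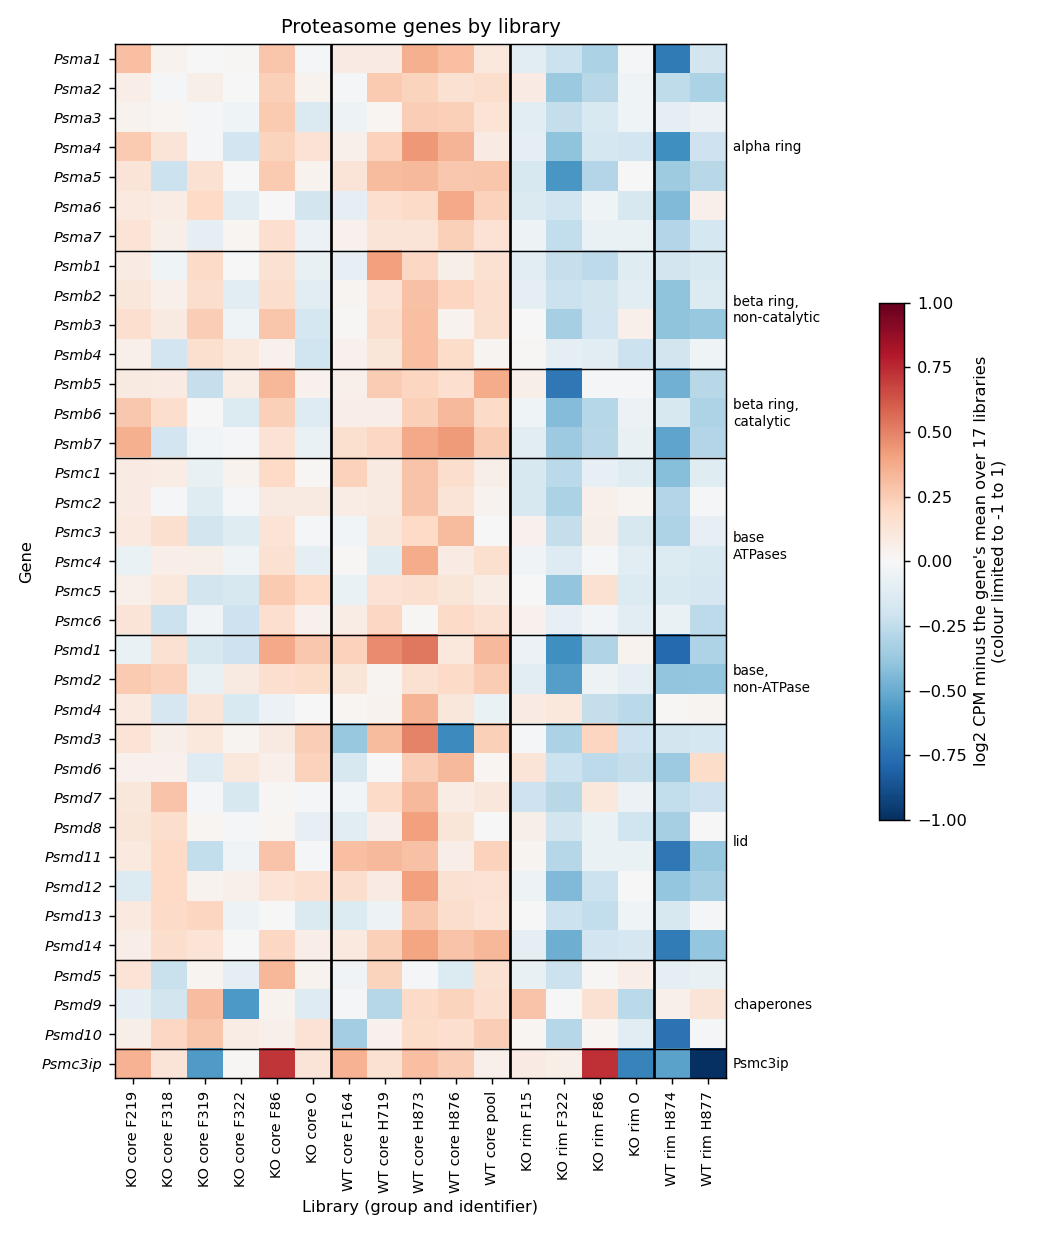
Level of each of the 35 genes (rows, grouped by role) in each of the 17 libraries (columns, in the order KO core, WT core, KO rim, WT rim), as log2 CPM minus the gene's mean over the libraries, with the colour limited to -1 to 1. The core libraries KO F86 and WT H873, with mean log2 CPM of 7.31 and 7.41, are red over most subunit rows, and the rim libraries KO F322 and WT H874, with 6.85 and 6.79, are blue over most.

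In the WT mice, 12 of the 35 genes were higher in core than in rim and none was lower. By edgeR's quasi-likelihood test, called at a Benjamini-Hochberg adjusted p under 0.05 over all genes, that is 34.3% of the genes, while 2.10% of all 20137 genes were called higher in core and 4.54% of those averaging 30 CPM or more. The median of the 35 log2 fold changes of core over rim was 0.37, against 0.033 over all genes. The fold change was positive for 34 genes, against 51.7% of all genes. In 26 of the 35 genes every WT core library lay above both WT rim libraries, which held for 10.1% of all genes. Without WT rim H874 none of the 35 was called, with 0.289% of all genes still called in either direction, and 14 had an unadjusted p under 0.05, while 33 were positive and the median was 0.31. The count was 3 without WT core H873 and 6 without WT core H719, with 2.06% and 2.51% of all genes called in either direction. Without WT rim H877 the median was 0.45, against 0.23 over all genes. In a fit of the female libraries only, without the WT core pool and the F322 and O libraries of the KO mice, Psmd14 alone was called, and the median was 0.37. Of all genes, 1.66% were called in that fit in either direction, with a median of 0.036.

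In the KO mice no gene passed the test for core over rim, and most values were again above 0. The median log2 fold change of core over rim was 0.18, against 0.029 over all genes, and 34 of the 35 values were positive, against 52.7% of all genes. edgeR called 0% of all 20137 genes in this comparison at an adjusted p under 0.05. At an unadjusted p under 0.05 it had 12 of the 35 genes and 1600 of all genes, and DESeq2 called 0 of the 35 and 33 of all genes. Psmb1, Psmc1, Psmd10 and Psmd14 were higher in every KO core library than in every KO rim library, which held for 0.80% of all genes. Without KO rim F322, the lowest of the KO libraries, the median was 0.14, against 0.039 over all genes. In that edgeR fit 2 of the 35 and 954 of all genes had an unadjusted p under 0.05. Those counts were 5 and 1297 without KO rim F86, 7 and 1326 without KO core F86, and 8 and 1400 without KO core F219. In female libraries only they were 2 and 981. There the median was 0.14, against 0.083 over all genes, and 31 of the 35 were positive.

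Taken as the mean of the KO and WT contrasts, core was higher than rim for 16 genes, or 45.7%, while 3.31% of all genes were called higher and 7.14% of those averaging 30 CPM or more. The median log2 fold change was 0.28, against 0.054 over all genes. Beside the 12 genes called in WT mice these were Psma2, Psma7, Psmb1 and Psmb6. In female libraries only Psmd14 alone was called, while 15 were called without WT core H873. Calls were far fewer without WT rim H874, both among the 35 and over all genes. Of all genes, 1.83% were called in either direction in female libraries only and 4.97% without WT core H873. Without WT rim H874 the median of the 35 was 0.24, against 0.094 over all genes. The libraries of this comparison are those of the KO and WT contrasts together, so that it is no separate evidence.

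**Figure D2:**
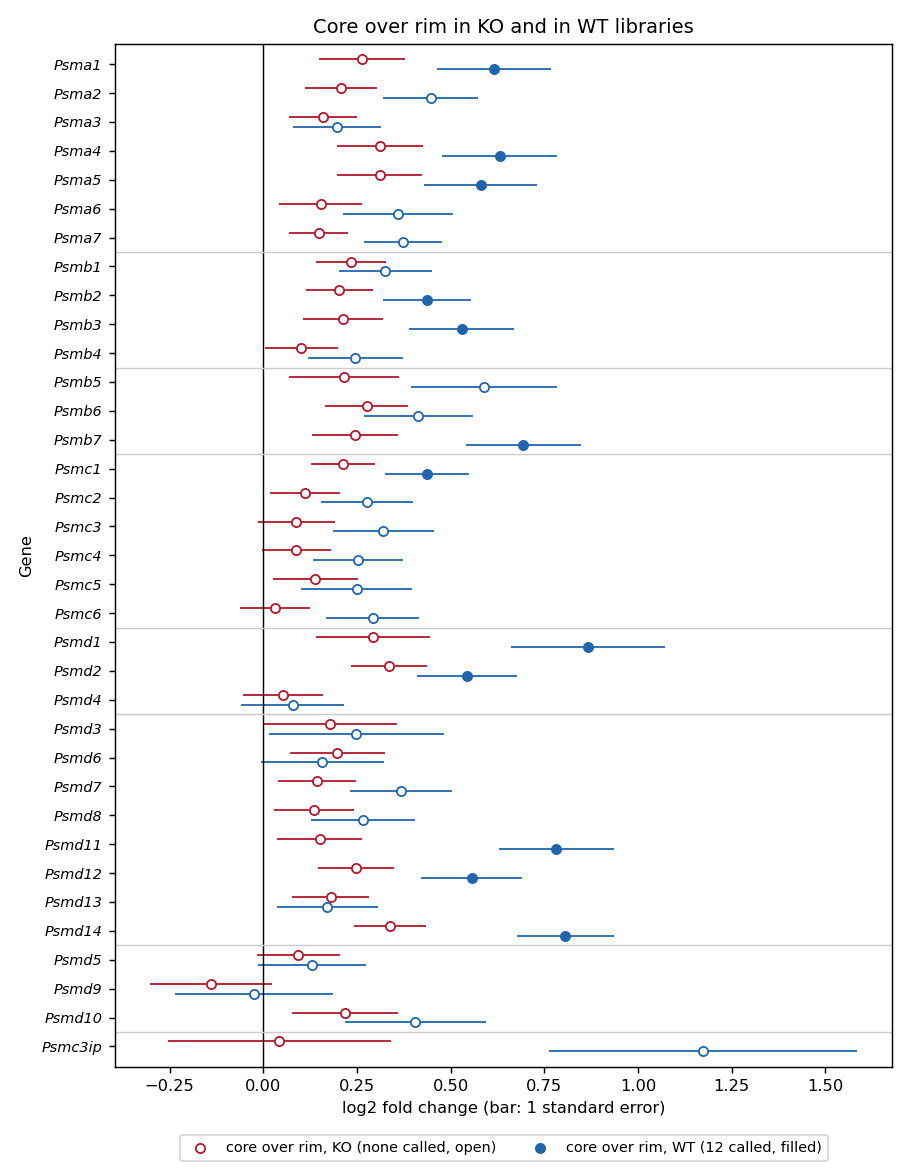
Log2 fold change of core over rim for the 35 genes in KO (red, upper point of each pair) and in WT mice (blue, lower point), with bars of 1 standard error. Filled points are the 12 genes called in WT mice, all to the right of 0, and Psmd9 alone lies to the left of 0 in both.

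The lid held the gene with the smallest p in the KO, WT and mean contrasts, Psmd14, the deubiquitinase that cuts ubiquitin chains from substrates as they enter. Psmd14 ran from 197 to 227 CPM in KO core with a median of 211, was at 210, 232, 239, 248 and 258 CPM in WT core, at 140, 172, 174 and 185 CPM in KO rim, and at 121 and 150 CPM in WT rim. Core and rim libraries did not overlap in either genotype. The log2 fold change of core over rim was 0.34 ± 0.0960 (SE) in KO mice, with an edgeR adjusted p of 0.62, and 0.81 ± 0.129 in WT mice, with an edgeR adjusted p of 0.00492. The WT value was 0.66 with an adjusted p of 0.115 when WT rim H874 was left out, and the mean contrast kept an edgeR adjusted p of 0.0259 at a log2 fold change of 0.50.

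Psmd11 and Psmd12, both scaffold subunits of the lid, were also higher in WT core. Psmd11 ran from 70.8 to 103 CPM in KO core with a median of 86.6, was at 88.0, 98.6, 103, 104 and 105 CPM in WT core, at 68.9, 80.4, 80.5 and 85.5 CPM in KO rim, and at 51.2 and 64.7 CPM in WT rim. The WT rim libraries were the lowest of all 17, whereas KO core and KO rim overlapped. Its log2 fold change of core over rim was 0.15 ± 0.114 in KO mice (edgeR adjusted p = 0.818) and 0.78 ± 0.153 in WT mice (edgeR adjusted p = 0.0127). Psmd12 had medians of 162 CPM in KO core, 169 CPM in WT core and 139 CPM in KO rim, and 116 and 121 CPM in WT rim, with a log2 fold change of 0.56 ± 0.135 in WT mice (edgeR adjusted p = 0.0315). Leaving out WT rim H874 gave an adjusted p of 0.231 for Psmd11 and 0.284 for Psmd12. The other 5 lid genes were not called, and their log2 fold changes in WT mice lay between 0.16 for Psmd6 and 0.37 for Psmd7. Psmd3 differed most between libraries of 1 group, from 90.4 to 197 CPM in WT core, a range that held both WT rim values, 123 and 124 CPM.

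In the base, the large scaffold subunits Psmd1 and Psmd2, which dock ubiquitin receptors and shuttles, were higher in WT core, and the ubiquitin receptor Psmd4 was not called. Psmd1 ran from 178 to 268 CPM in KO core with a median of 212, was at 221, 242, 258, 286 and 296 CPM in WT core, at 135, 167, 197 and 211 CPM in KO rim, and at 120 and 166 CPM in WT rim. WT core and WT rim were apart, while KO core and KO rim overlapped. The log2 fold change of core over rim was 0.29 ± 0.153 in KO mice (edgeR adjusted p = 0.657) and 0.87 ± 0.206 in WT mice (edgeR adjusted p = 0.0294), the largest value among the subunit genes. Leaving out WT rim H874, the WT value of Psmd1 was 0.65.

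Psmd2 ran from 360 to 455 CPM in KO core with a median of 429, was at 387, 413, 424, 434 and 453 CPM in WT core, at 259, 352, 357 and 366 CPM in KO rim, and at 289 and 291 CPM in WT rim. Only 1 KO rim library, at 366 CPM, lay above the lowest core library, which was a KO core library at 360 CPM. The log2 fold change was 0.34 ± 0.101 in KO mice (edgeR adjusted p = 0.62) and 0.54 ± 0.133 in WT mice (edgeR adjusted p = 0.0328). Leaving out WT rim H874, the WT value of Psmd2 was 0.535. Psmd4 was at 163.9 to 201.7 CPM in KO core, 176 to 233 CPM in WT core, 153 to 198 CPM in KO rim, and 185 and 187 CPM in WT rim, so that all groups overlapped. Its log2 fold change was 0.05 ± 0.106 in KO mice and 0.08 ± 0.138 in WT mice.

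The 6 ATPases of the base differed less between core and rim, with a median log2 fold change of 0.10 in KO mice and 0.28 in WT mice. Psmc1 alone was called. It ran from 196 to 237 CPM in KO core with a median of 214, was at 215.3, 219.3, 233.3, 242.3 and 251.6 CPM in WT core, at 172, 185, 189 and 195 CPM in KO rim, and at 154 and 190 CPM in WT rim. Core lay above rim in both genotypes without overlap. The log2 fold change was 0.21 ± 0.0851 in KO mice (edgeR adjusted p = 0.62) and 0.44 ± 0.112 in WT mice (edgeR adjusted p = 0.0396). Leaving out WT rim H874, the WT value was 0.29 with an adjusted p of 0.506. The WT values of Psmc2, Psmc3, Psmc4, Psmc5 and Psmc6 lay between 0.25 and 0.32 with edgeR adjusted p of at least 0.216. Whether the ATPases differed less than the other subunits was not tested.

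Among the 7 alpha subunits, Psma4, Psma1 and Psma5 were higher in WT core, and the mean contrast added Psma2 and Psma7. Psma4 ran from 127 to 173 CPM in KO core with a median of 158, was at 150, 153, 169, 182 and 195 CPM in WT core, at 109, 127, 128 and 135 CPM in KO rim, and at 94.3 and 125 CPM in WT rim. The WT groups were apart, and the lowest KO core library lay among the KO rim libraries. Its log2 fold change of core over rim was 0.31 ± 0.116 in KO mice (edgeR adjusted p = 0.62) and 0.63 ± 0.154 in WT mice (edgeR adjusted p = 0.032). Leaving out WT rim H874, the WT value of Psma4 was 0.44.

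Psma1 was at 237 to 295 CPM in KO core, 254 to 308 CPM in WT core, 193 to 237 CPM in KO rim, and 147 and 211 CPM in WT rim, with a log2 fold change of 0.62 ± 0.152 in WT mice (edgeR adjusted p = 0.0334). Psma5 was at 87.1 to 121 CPM in KO core, 111 to 126 CPM in WT core, 67.8 to 101 CPM in KO rim, and 79.0 and 83.7 CPM in WT rim, with 0.58 ± 0.150 in WT mice (edgeR adjusted p = 0.0411). Without WT rim H874 the value of Psma1 was 0.37, and that of Psma5 was 0.54, with adjusted p of 0.481 and 0.345. Psma3 and Psma6 were not called, at log2 fold changes of 0.20 and 0.36 in WT mice.

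Of the constitutive catalytic subunits, Psmb7, which carries the trypsin-like site, was higher in WT core. Psmb7 ran from 64.6 to 94.8 CPM in KO core with a median of 73.0, was at 82.8, 85.3, 88.4, 96.3 and 99.4 CPM in WT core, at 57.6, 61.0, 68.7 and 70.3 CPM in KO rim, and at 51.3 and 60.5 CPM in WT rim. All WT core libraries lay above all rim libraries, and KO core overlapped both. The log2 fold change of core over rim was 0.25 ± 0.114 in KO mice (edgeR adjusted p = 0.625) and 0.69 ± 0.153 in WT mice (edgeR adjusted p = 0.0211). Without WT rim H874 the WT value was 0.58 with an adjusted p of 0.293.

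Psmb6, the caspase-like subunit, was called in the mean contrast only. It was at 155 to 205 CPM in KO core, 179 to 213 CPM in WT core, 126 to 165 CPM in KO rim, and 138 and 153 CPM in WT rim. Its log2 fold change was 0.28 ± 0.110 in KO mice and 0.41 ± 0.145 in WT mice (edgeR adjusted p = 0.131), with 0.34 ± 0.0912 in the mean contrast (edgeR adjusted p = 0.0329). Psmb5, the chymotrypsin-like subunit, was at 41.4 to 61.1 CPM in KO core, 50.2 to 63.0 CPM in WT core, 29.6 to 50.5 CPM in KO rim, and 34.9 and 40.1 CPM in WT rim. Its log2 fold change was 0.22 ± 0.147 in KO mice and 0.59 ± 0.195 in WT mice (edgeR adjusted p = 0.108), so that a value of similar size to those called did not pass.

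The 4 beta subunits without a proteolytic site had a median log2 fold change of 0.21 in KO mice and 0.38 in WT mice. Psmb3 was at 156 to 213 CPM in KO core, 178 to 217 CPM in WT core, 140 to 183 CPM in KO rim, and 134 and 136 CPM in WT rim, with 0.53 ± 0.140 in WT mice (edgeR adjusted p = 0.0452). Psmb2 had 0.44 ± 0.118 in WT mice (edgeR adjusted p = 0.0475). Both p-values were near the threshold, and both genes had adjusted p of at least 0.310 without WT rim H874. Psmb1 was called in the mean contrast alone, and Psmb4 in none.

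The 3 chaperones were not called, with a median log2 fold change of 0.094 in KO mice and 0.13 in WT mice. Psmd9 was the only one of the 35 with negative values in both genotypes, -0.14 ± 0.163 in KO mice and -0.02 ± 0.211 in WT mice, at 24.7 to 45.4 CPM in KO core, 30.2 to 43.0 CPM in WT core, 30.5 to 44.7 CPM in KO rim, and 38.1 and 40.2 CPM in WT rim. Psmc3ip, the recombination factor, had the largest WT value of the 35, 1.17 ± 0.411, and was not called (edgeR adjusted p = 0.131). It stood at 5.06 to 12.3 CPM in KO core, 7.74 to 9.54 CPM in WT core, 4.73 to 12.4 CPM in KO rim, and 2.58 and 5.17 CPM in WT rim.

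**Figure D3:**
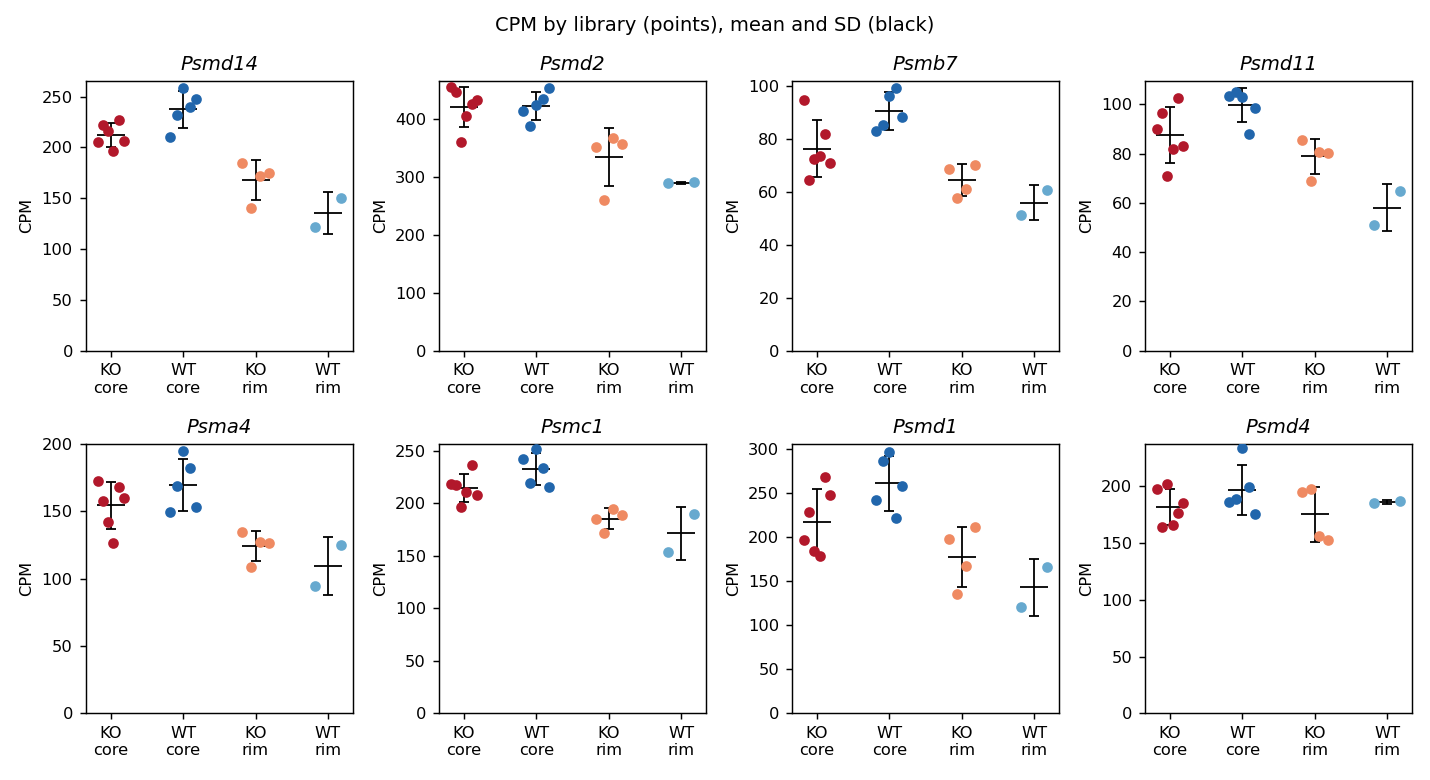
CPM of Psmd14, Psmd2, Psmb7, Psmd11, Psma4, Psmc1, Psmd1 and Psmd4 in each library (points), with the group mean and SD in black and the groups in the order KO core, WT core, KO rim, WT rim. For Psmd14 the WT core libraries lie at 210 to 258 CPM and the WT rim libraries at 121 and 150 CPM, whereas the groups of Psmd4 overlap.

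Promoters were looked at because the genes moved together. Proteasome genes of mammals are known targets of the transcription factors NRF1 (Nfe2l1) and NRF2 (Nfe2l2), which bind antioxidant response elements, here searched by the core TGACNNNGC, and many hold CCAAT boxes, bound by NF-Y. The window ran from 250 bases before to 50 bases after the RefSeq start (GRCm38.p6), was searched on both strands, and was at hand for 29 of the 35 genes. TGACNNNGC occurred in 5 of the 29 windows, or 17.2%, against 12.5% of 27025 windows of all genes. CCAAT occurred in 12, or 41.4%, against 37.9%. Of the 13 windows of genes called in the mean contrast, 2 held TGACNNNGC, and so did 3 of the 16 of genes not called. None of the 29 windows held both motifs. A match is a description of letters, not a binding site.

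The 5 matches to TGACNNNGC are shown with up to 10 bases on each side, with the match in capitals and each sequence on the strand of the match. Psmb5 (chr14:54618024-54618052, minus strand), Psmb6 (chr11:70525338-70525366, plus strand) and Psmd9 (chr5:123228149-123228177, plus strand) hold it on the strand of the gene, and Psmc6 (chr14:45329587-45329615, minus strand) and Psmd12 (chr11:107479278-107479299, minus strand) on the other.
Psmb5: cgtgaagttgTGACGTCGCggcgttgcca
Psmb6: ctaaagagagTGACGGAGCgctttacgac
Psmd9: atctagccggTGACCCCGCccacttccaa
Psmc6: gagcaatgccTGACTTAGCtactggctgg
Psmd12: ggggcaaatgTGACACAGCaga

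The 250 bases before the start of Psmd14 (chr2:61711444-61711693, plus strand) and Psmd2 (chr16:20651402-20651651, plus strand) are shown because these genes had the smallest p in the mean contrast. Neither held TGACNNNGC. Capitals mark CCAAT read on the opposite strand, which occurred once in the bases shown of Psmd14. Psmd2 had no CCAAT in its window on either strand. Psmb7 came next by p and has no entry in the promoter table.
Psmd14: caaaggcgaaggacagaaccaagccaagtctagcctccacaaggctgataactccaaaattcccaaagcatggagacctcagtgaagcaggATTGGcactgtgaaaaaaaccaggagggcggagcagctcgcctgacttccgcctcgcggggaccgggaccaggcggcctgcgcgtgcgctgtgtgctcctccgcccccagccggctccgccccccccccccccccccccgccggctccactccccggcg
Psmd2: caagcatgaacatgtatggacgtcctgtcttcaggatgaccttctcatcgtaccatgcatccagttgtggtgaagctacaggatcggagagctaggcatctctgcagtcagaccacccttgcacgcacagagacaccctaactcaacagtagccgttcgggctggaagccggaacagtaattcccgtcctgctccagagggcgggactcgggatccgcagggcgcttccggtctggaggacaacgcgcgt

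The loss of endothelial PD-L1 was compared within core and within rim, and no proteasome gene passed the test in either. All male libraries were KO libraries, and only the pool among the WT libraries was mixed, so that sex is partly confounded with genotype here. In core the median log2 fold change of KO over WT was -0.10, against -0.010 over all genes, and 3 of the 35 values were positive. edgeR called 0% of all 20137 genes. At an unadjusted p under 0.05 it had 1 of the 35 genes and 1244 of all genes, and DESeq2 called 0 of the 35 and 11 of all genes. Psmb7 had the smallest p, with a log2 fold change of -0.24 ± 0.106 (edgeR adjusted p = 0.796), and its KO core range of 64.6 to 94.8 CPM overlapped the WT core range of 82.8 to 99.4 CPM. Psmd1 had the most negative value, -0.26 ± 0.142, and Psmd10, the chaperone also called gankyrin, the highest, 0.06 ± 0.133. In none of the 35 genes were the KO core and WT core libraries apart, which held with KO higher for 0.223% of all genes and with KO lower for 0.174%. In female libraries only the median in core was -0.067, against -0.0025 over all genes, and 6 of the 35 were positive.

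In rim the values were on the other side of 0 for most genes. The median log2 fold change of KO over WT was 0.12, against 0.011 over all genes, and 29 of the 35 were positive, against 50.8% of all genes. edgeR called 0% of all 20137 genes here. At an unadjusted p under 0.05 it had 3 of the 35 genes, Psmd11, Psmc3ip and Psmd14, and 1480 of all genes, and DESeq2 called 0 of the 35 and 265 of all genes. Psmd11 had the smallest p, at 68.9, 80.4, 80.5 and 85.5 CPM in KO rim against 51.2 and 64.7 CPM in WT rim, with a log2 fold change of 0.44 ± 0.155 (edgeR adjusted p = 0.515). Psmd14 had 0.31 ± 0.129 (edgeR adjusted p = 0.642), with the lowest KO rim library, 140 CPM, below the higher WT rim library, 150 CPM.

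KO rim lay above WT rim without overlap for Psmb3, Psmc4 and Psmd11, which held for 6.86% of all genes. Without WT rim H874 the median in rim was 0.027, with 21 of the 35 positive, against 0.10 over all genes. Without WT rim H877 it was 0.22, against 0.20 over all genes, so that the rim value rests on these libraries. In female libraries only the median in rim was 0.17, against -0.038 over all genes, and 31 of the 35 were positive. WT rim and WT core also enter the core over rim contrast in WT mice, and the 2 sets of values are therefore not independent.

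The difference of the KO effect between core and rim was tested as an interaction, which also compares core over rim between KO and WT mice. Its median was -0.22 on the log2 scale, against -0.012 over all genes, and 2 of the 35 values were positive. It rests on the WT rim libraries: without H874 the median was -0.12, against -0.13 over all genes, and without H877 it was -0.32, against -0.24 over all genes. edgeR called 0% of all 20137 genes. At an unadjusted p under 0.05 it had 5 of the 35 genes and 1547 of all genes, and DESeq2 called 0 of the 35 and 159 of all genes. Psmd11 had the smallest p, with -0.63 ± 0.188 (edgeR adjusted p = 0.45), followed by Psmd14 with -0.47 ± 0.157 (edgeR adjusted p = 0.539) and Psmb7 with -0.45 ± 0.188 (edgeR adjusted p = 0.607). The smaller core over rim values in KO mice were thus not shown to differ from those in WT mice.

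**Figure D4:**
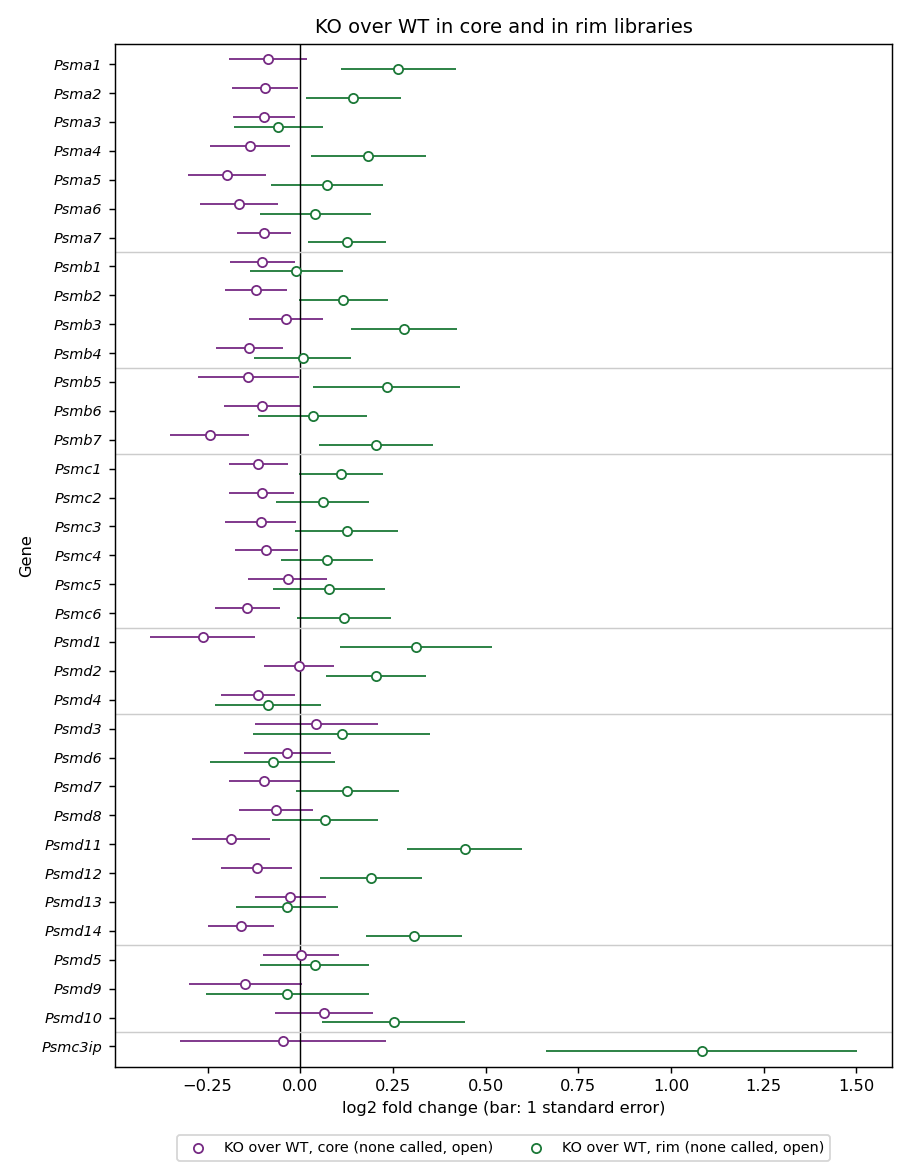
Log2 fold change of KO over WT for the 35 genes in core (purple, upper point of each pair) and in rim (green, lower point), with bars of 1 standard error and all points open because none was called. Core values lie to the left of 0 for 32 genes, and rim values to the right of 0 for 29.

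The balance of inducible to constitutive catalytic subunits was measured per library as the difference of log2 CPM, for which transcript lengths cancel between groups. Psmb8 over Psmb5, the chymotrypsin-like pair, was 3.82 ± 0.180 in KO core (SD, n = 6), 3.78 ± 0.181 in WT core (n = 5), 3.90 ± 0.228 in KO rim (n = 4) and 3.85 ± 0.0559 in WT rim (n = 2). Psmb9 over Psmb6, the caspase-like pair, was 0.443 ± 0.146 in KO core, 0.411 ± 0.0999 in WT core, 0.461 ± 0.0724 in KO rim and 0.264 ± 0.287 in WT rim. Of the WT rim values, H874 had 0.0612 and H877 had 0.467. In 8 two-sided exact permutation tests of these 2 pairs p lay between 0.2 and 0.867, with adjusted p of at least 0.7, so that no difference was shown. For KO over WT in rim, 4 against 2 libraries cannot give a p below 0.0667, and those tests could not have passed.

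Psmb10 over Psmb7, the trypsin-like pair, was 0.940 ± 0.224 in KO core, 0.683 ± 0.139 in WT core, 1.11 ± 0.129 in KO rim and 1.14 ± 0.0263 in WT rim. The WT core libraries, at 0.483 to 0.825, lay below both WT rim libraries, at 1.12 and 1.15, with a difference of -0.45. The exact permutation p was 0.0476, the smallest that 5 against 2 libraries can give, and 0.338 after Benjamini-Hochberg adjustment over the 12 tests of the 3 ratios. At that limit it could not have passed the adjustment, so this test cannot decide whether the ratio differed. KO core was higher than WT core by 0.26, with overlapping libraries (exact permutation p = 0.0563, adjusted p = 0.338).

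**Figure D5:**
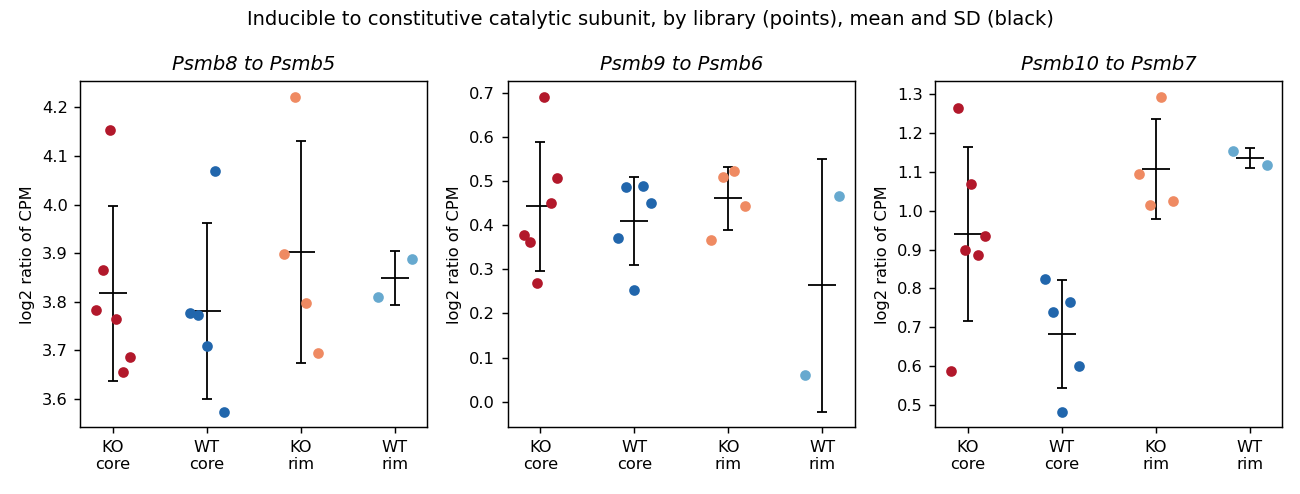
Log2 ratio of CPM of Psmb8 to Psmb5, Psmb9 to Psmb6 and Psmb10 to Psmb7 by library (points), with the group mean and SD in black and the groups in the order KO core, WT core, KO rim, WT rim. In the Psmb10 to Psmb7 panel the WT core libraries lie at 0.483 to 0.825 and the WT rim libraries at 1.12 and 1.15.

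The inducible subunits themselves were also higher in WT core for Psmb9 and Psmb8. Psmb9 was at 205 to 274 CPM in KO core, 231 to 300 CPM in WT core, 180 to 222 CPM in KO rim, and 159 and 190 CPM in WT rim, with a log2 fold change of core over rim of 0.56 ± 0.141 in WT mice (edgeR adjusted p = 0.0362). Psmb8 was at 644 to 771 CPM in KO core, 689 to 916 CPM in WT core, 554 to 754 CPM in KO rim, and 490 and 594 CPM in WT rim, with 0.52 ± 0.136 (edgeR adjusted p = 0.0434). Psmb10 had 0.24 ± 0.127 and was not called (edgeR adjusted p = 0.332). Neither Psmb9 nor Psmb8 was called without WT rim H874, at 0.44 and 0.38 with edgeR adjusted p of 0.401 and 0.437. Psmb8 was not called without WT core H873 either (edgeR adjusted p = 0.0594), nor Psmb9 without WT rim H877 (edgeR adjusted p = 0.0544).

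Other genes of the pathway, taken from fixed lists, were mostly not called. Among 2 measured subunits that the symbol rule misses, Sem1, a small lid subunit, was called in the mean contrast with a log2 fold change of core over rim of 0.40 ± 0.103 (edgeR adjusted p = 0.0294), and the ubiquitin receptor Adrm1 had -0.04 ± 0.102. Of 5 assembly factors, Pomp, the maturation factor of the core particle, was called there with 0.37 ± 0.0930 (edgeR adjusted p = 0.027). The edgeR adjusted p without WT rim H874 was 0.121 for Sem1 and 0.245 for Pomp, and without WT rim H877 it was 0.114 for Sem1. None of the 5 activators and inhibitors of the proteasome, Psme1 to Psme4 and Psmf1, was called in any contrast.

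Of 11 proteasome-bound enzymes and shuttles, 1 was higher and 1 lower in WT core than in WT rim. The higher one was Uchl5, a deubiquitinase of the regulatory particle, at 111 to 143 CPM in WT core and at 78.5 and 79.4 CPM in WT rim, with a log2 fold change of 0.68 ± 0.155 (edgeR adjusted p = 0.0248). The lower one was Zfand2a, a stress-induced protein that binds the regulatory particle, at 33.1 to 50.2 CPM in WT core and at 92.6 and 105 CPM in WT rim, with -1.24 ± 0.215 (edgeR adjusted p = 0.00743). Of 8 genes of transcriptional control, Mafk, a small MAF partner of NRF1 and NRF2, was lower in WT core, at 105 to 153 CPM against 226 and 349 CPM in WT rim, with -1.16 ± 0.220 (edgeR adjusted p = 0.0109). Nfe2l1 had 0.08 ± 0.198 and Nfe2l2 had -0.42 ± 0.282 in WT mice, and neither was called. Without WT rim H874 none of Uchl5, Zfand2a and Mafk was called in WT mice, at 0.67, -1.15 and -0.82 with edgeR adjusted p of 0.242, 0.105 and 0.243, and without WT rim H877 Uchl5 was not (edgeR adjusted p = 0.0974). None of 6 genes of ubiquitin and its activating enzymes, 6 of p97 and its cofactors and 6 of class I peptide transport and loading was called in any contrast.

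Other gene lists moved with the same contrast. Of 30 cell cycle genes, 24 were called higher in WT core than in WT rim, with a median log2 fold change of 2.25 and all 30 positive. Of all genes, 2.10% were called higher. The count was 24 without WT core H873, where 2.06% of all genes were called in either direction. Fewer were called without WT rim H877 and without WT rim H874, where the medians were 2.23 and 2.15 and all 30 were positive. In KO mice the median was 0.58, with 0 called and 29 positive. Their summed level ran from 2711 to 5518 CPM in KO core, from 2938 to 5839 CPM in WT core, from 2014 to 3450 CPM in KO rim and from 1480 to 1483 CPM in WT rim. Each of these markers had reads in every core library, and Cenpf was at 0 in 1 WT rim library. Of 13 macrophage and monocyte genes, C1qb and C1qc were called higher in WT core, with a median of 2.27 and all 13 positive, and none was called without WT core H873, WT rim H874 or WT rim H877. The summed macrophage level ran from 1984 to 5859 CPM in KO core, from 2022 to 6063 CPM in WT core, from 692.5 to 8023 CPM in KO rim and from 1216 to 2005 CPM in WT rim, and Marco was at 0 in some libraries of KO core, KO rim and WT rim.

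For markers of the cell types that follow, no gene was called in WT core over rim, but most values of each list lay on 1 side of 0. All 8 neutrophil genes were positive, with a median log2 fold change of 1.70, and their summed level ran from 50.59 to 171.7 CPM in KO core, from 123.5 to 385.6 CPM in WT core, from 13.05 to 252.6 CPM in KO rim and from 58.5 to 127.3 CPM in WT rim. Retnlg, Ngp and Ltf of this list were at 0 in 1 or both WT rim libraries. Of 12 genes of lung epithelium and tumour 11 were positive, with a median of 1.95, at summed levels of 267.4 to 1170 CPM in KO core, 167.1 to 853.6 CPM in WT core, 120.2 to 892.6 CPM in KO rim and 86.83 to 350.8 CPM in WT rim. Sftpb, Sftpd and Nkx2-1 were at 0 in some libraries of every group. Of 9 genes of fibroblasts and mural cells 8 were positive, with a median of 1.70, at summed levels of 0.809 to 127.0 CPM in KO core, 10.72 to 41.31 CPM in WT core, 8.517 to 84.13 CPM in KO rim and 4.595 to 6.288 CPM in WT rim, and Lum and Cspg4 were at 0 in some libraries of every group. Of 10 genes of B and plasma cells 1 was positive, with a median of -0.93, at summed levels of 203.2 to 3946 CPM in KO core, 524.0 to 2369 CPM in WT core, 338.1 to 1427 CPM in KO rim and 786.0 to 914.1 CPM in WT rim, and Ebf1 was at 0 in 1 or more KO rim libraries. Core over rim in KO mice was positive for 6 of the 13 macrophage genes (median -0.0013) and 1 of the 8 neutrophil genes (-0.47). It was positive for 7 of 12 genes of lung epithelium and tumour (0.59) and 5 of 9 of fibroblasts and mural cells (0.19). For B and plasma cells it was 1 of 10 (-1.61). None of the 10 T cell and CD8 genes was called in the KO or the WT contrast. Cd247, a chain of the T cell receptor complex, was called lower in core in the mean contrast. There the epithelial marker Epcam and Ikzf4, of the list of CD4 and regulatory T cells, were called higher. Without WT core H873, none of Cd247, Epcam and Ikzf4 was called. Of the remaining lists no gene was called in WT core over rim. Positive there were 3 of 5 genes of CD4 and regulatory T cells and 3 of 5 of natural killer cells. The share was 3 of 7 for dendritic cells, 6 of 9 for endothelium and 1 of 5 for red blood cells. The part of dividing cells and of these other cell types in the proteasome values was not tested.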

How the data were processed

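RNA was prepared with the RNeasy Micro Kit and libraries with the TruSeq RNA kit, per the labels' protocols. Per the submitters' processing notes, the tools were featureCounts, Subread 2.0.0, HISAT2, cutadapt 3.2 and Bowtie2 2.4.5, with GRCm38 and mm10, and no roles are given. The authors deposited 1 table of raw counts per gene symbol for 17 libraries. The main test was that of edgeR 4.0.16 in R 4.3.3: filterByExpr kept 20137 genes, libraries were scaled by TMM, and a robust quasi-likelihood fit with 4 group means over all 17 libraries gave 6 contrasts, adjusted by Benjamini-Hochberg over all genes at 0.05. CPM used TMM-scaled totals (the 1 CPM rule used plain totals), and log2 CPM a prior count of 2. Alternatives used DESeq2 1.42.0, limma 3.58.1, other scaling, no filter, female libraries, only the groups compared, a replicate block and each library left out. Named were the 5 genes with the smallest p per contrast, the extremes, the catalytic subunits and called genes of related lists; other members are given as counts or were named after their values were seen. Members and lists were chosen with earlier results of these data known. The edgeR fit was tested on simulated counts with known changes between core and rim.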

Additional observations from a re-analysis of the deposited data

Results flagged for a closer look

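In 6 of 123 group values tested, 1 library lay farther from the others of its group than Dixon's 95% limit, which chance passes in about 1 in 20 groups. Low values of 1 library made up 3 of them: KO rim F322 had 275.9 CPM of Psma7 (the other KO rim libraries 311.9 to 315.4), 29.63 CPM of Psmb5 (others 48.0 to 50.47) and 259.4 CPM of Psmd2 (others 351.8 to 366.2). KO rim F15 had the high value of 152.9 CPM of Psmd6, against 116.5 to 120.1 in the other KO rim libraries. KO core F86 had 341.5 CPM of Psma2, against 287.5 to 302.9 in the other KO core libraries. WT core H873 had 202.1 CPM of Psmd12, against 160.9 to 171.6 in the other WT core libraries. Groups of 2, such as WT rim, cannot be looked at in this way.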

How the results depend on the processing

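The direction of core over rim held for the called genes under every alternative run, while the number called in WT mice, 12, did not hold: it was 12 with RLE factors, 13 with upper-quartile factors, 14 with total counts only, 8 with no filter and 16 with DESeq2, but 1 with limma voom and quality weights, 1 in female libraries only, 0 in a fit of the WT libraries only, and 0 without WT core H873 and WT rim H874 (chosen after seeing the data, as were the values of related genes and marker lists without H873, H874 or H877). Leaving out 1 library at a time gave 0 to 13, with 0 without WT rim H874, 3 without WT core H873, 6 without WT core H719 and 7 without WT rim H877. The mean contrast, with 16, gave 1 in female libraries only, 1 without H873 and H874, and 1 to 17 leaving out 1 library at a time, with 12 by limma voom and 18 by DESeq2. Libraries of KO core and KO rim with the same identifier were of the same sex by Xist and Y-linked reads. They were male for F322 and O and female for F86, but the labels do not say that an identifier is an animal. For F322, F86 and O, deviations from the group means correlated at 0.0721, 0.0449 and 0.0819 over all genes tested. Over the 35 genes they correlated at -0.0254, 0.367 and -0.102. With the shared identifiers as a replicate block, 7 genes were called in WT mice and 14 in the mean contrast. The other contrasts had 0 of the 35 under every alternative. Counts over all genes moved too: 777 genes called in WT core over rim became 1820 with DESeq2, 139 with limma voom, 313 in female libraries and 91 in WT libraries only, and 1283 in the mean contrast became 2393 with DESeq2 and 345 in female libraries.

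Of the catalytic ratios, none of which was called, some changed sign. In female libraries only, Psmb8 to Psmb5 was -0.00062 for KO over WT in rim and 0.016 for core over rim in KO mice, Psmb9 to Psmb6 was -0.036 for KO over WT in core, and Psmb10 to Psmb7 was 0.058 for KO over WT in rim. Leaving out 1 library at a time, Psmb8 to Psmb5 ran from -0.030 to 0.11 for KO over WT in core, from -0.051 to 0.12 in rim and from -0.15 to 0.021 for core over rim in KO mice. Psmb9 to Psmb6 ran from -0.017 to 0.067 for KO over WT in core, from -0.0059 to 0.40 in rim, from -0.068 to 0.017 for core over rim in KO mice and from -0.056 to 0.35 in WT mice. Psmb10 to Psmb7 ran from -0.091 to 0.0023 for KO over WT in rim. Causes were not tested. With 2 WT rim libraries, contrasts that use them have little precision.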
